A study of Mus musculus with 8 samples.

Results

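The genes described here encode the extracellular part of the WNT pathway: the secreted WNT ligands, the receptors that bind them and the secreted antagonists that hold them off. Members were all protein-coding genes of the RefSeq GRCm38 gene table on chromosomes 1 to 19 whose symbol is Wnt, Fzd, Sfrp or Dkk followed by a digit, together with Lrp5, Lrp6, Wif1, Ror1 and Ror2. This gave 42 of 20558 protein-coding genes, namely 19 ligands (Wnt genes), 14 receptors (10 Fzd genes, Lrp5, Lrp6, Ror1 and Ror2) and 9 antagonists (4 Sfrp genes, 4 Dkk genes and Wif1). The rule used gene names only and no measured value. RelA, the p65 subunit of NF-kB, was mapped by chromatin immunoprecipitation and sequencing in primary wild-type C57BL/6 mouse embryonic fibroblasts, which are cells grown out of embryos rather than a cell line. All cells were serum-starved overnight, and TNF, a cytokine that activates NF-kB, was given at 10 ng/ml for 0.5 or 3 h or not yet (0 h), with 2 libraries at each of the 3 times and 2 libraries of input DNA. Binding was recorded as 1 list of 9829 RelA peaks, given by their positions in the mm10 genome, and 9688 of them lay on chromosomes 1 to 19.

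No peak carried a height, a score, a time or a library. The times could therefore not be compared, and neither the read depth behind a peak nor the spread of the paired libraries could be read from the list. Binding positions hold no expression, so whether the fibroblasts transcribed a gene, and whether the culture held other cells, could not be checked. As a scale for the list, all 14 of a set of NF-kB response genes had a peak centre inside the gene or within 10 kb of it, as had 23.8% of protein-coding genes outside the WNT set. The set was chosen with earlier results of these data known, so its count is no independent check of the list. Of the response genes with a centre inside, Tnfaip3, Relb and Nfkbie had the centres nearest to a gene end, at 0.033, 0.034 and 0.084 kb. Tnfaip3 encodes a feedback inhibitor of NF-kB, Relb an NF-kB subunit and Nfkbie an I-kappa-B protein.

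WNT proteins are lipid-modified signals that act between neighbouring cells. In the branch that runs through beta-catenin, a WNT protein joins a Frizzled receptor (Fzd genes) to the co-receptor LRP5 or LRP6, beta-catenin is spared from breakdown, and it enters the nucleus to act with TCF and LEF factors. In the branches that do not use beta-catenin, Frizzled proteins act with ROR1, ROR2 and other co-receptors on the cytoskeleton and on cell polarity. Secreted Frizzled-related proteins (Sfrp genes) and WIF1 bind WNT proteins, while the Dickkopf proteins DKK1, DKK2 and DKK4 bind LRP5 and LRP6. DKK3 is the divergent member of that family. Fibroblasts both send and receive these signals, in development and in wound repair.

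A peak overlapped an annotated promoter, by any number of bases, in 1 of the 28 members with an entry in the RefSeq promoter table. That table (GRCm38.p6) gives 250 bases before to 50 bases after a start site. Among the other protein-coding genes of that table the share was 5.79%. The gene was Wnt5b, which encodes a ligand best known for signalling without beta-catenin, and its 3 annotated promoters on the minus strand are shown because only the middle one lay under a peak. The upstream promoter is chr6:119544298-119544597, the middle promoter chr6:119467162-119467461 and the downstream promoter chr6:119449337-119449636. Capitals mark matches to the kappaB motif, the usual binding site of NF-kB, or to TGANTCA, the usual binding site of AP-1, searched on both strands. A match is only a match of letters.
Wnt5b upstream promoter: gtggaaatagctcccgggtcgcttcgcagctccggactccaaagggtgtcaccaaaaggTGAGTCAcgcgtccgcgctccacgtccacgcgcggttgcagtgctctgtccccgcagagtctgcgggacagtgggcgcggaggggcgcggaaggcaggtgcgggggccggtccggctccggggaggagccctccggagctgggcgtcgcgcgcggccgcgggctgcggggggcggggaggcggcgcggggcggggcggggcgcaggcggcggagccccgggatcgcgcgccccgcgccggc
Wnt5b middle promoter: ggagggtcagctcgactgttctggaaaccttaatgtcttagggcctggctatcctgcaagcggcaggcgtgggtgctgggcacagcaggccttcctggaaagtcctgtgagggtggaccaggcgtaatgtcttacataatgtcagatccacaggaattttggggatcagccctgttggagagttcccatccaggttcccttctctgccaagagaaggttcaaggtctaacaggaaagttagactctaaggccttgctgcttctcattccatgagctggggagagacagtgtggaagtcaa
Wnt5b downstream promoter: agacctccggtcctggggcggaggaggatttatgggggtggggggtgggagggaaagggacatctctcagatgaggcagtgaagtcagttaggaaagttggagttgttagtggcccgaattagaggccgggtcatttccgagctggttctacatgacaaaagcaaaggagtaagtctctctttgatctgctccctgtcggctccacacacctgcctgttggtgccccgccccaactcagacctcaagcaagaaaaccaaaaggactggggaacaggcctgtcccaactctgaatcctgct
All 300 bases of the middle promoter lay under a peak of 643 bp (chromosome 6, 119467097 to 119467739), centred 0.207 kb upstream of its start site. Neither motif was found in those letters in the exact form searched, and sites close to that form were not counted here. The upstream promoter held 1 AP-1 match and had its nearest peak centre 17.6 kb away, and the downstream promoter held neither motif, with the nearest centre at 18.0 kb. The upstream promoter was 78% G and C with 47 CG pairs, against 53% and 4 pairs in the middle one and 55% and 7 pairs in the downstream one. The promoter under the peak was thus the poorest of the Wnt5b promoters in CG pairs.

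Matches to the kappaB motif stood in the promoters of 9 members, in 9 of 31 member promoters (29.0%) against 17.9% of the other promoters of protein-coding genes. Member promoters were also richer in G and C, with a median of 66.7% against 56.7%, and the part of this in the motif share was not tested. Of the 9 genes, 5 had a peak centre inside or within 10 kb, as had 7 of the 19 genes with a promoter entry but no match and 5 of the 14 genes with no entry. The matching stretches of these 5 genes are shown with 9 bases on either side where the window allows, to set the letters beside the peak positions given further on. None of these promoters was itself under a peak.
Wnt6, chr1:74771644-74771672, plus strand: ggatggcagGGGACAACCCCgcagaggct
Wnt3a, chr11:59290884-59290911, minus strand: agccccggcGGGCGCCCCCcgcggcgct
Wnt10b, chr15:98778336-98778363, minus strand: tacagcctcGGGAGACCCCggagcaggt
Wnt10b, chr15:98778172-98778200, minus strand: gggtggggtGGGGATGCCCCgggctctgg
Wnt16, chr6:22288064-22288091, plus strand: ctcagcccaGGAGCGCCCCccgcagagc
Wnt16, chr6:22288249-22288276, plus strand: ggaaagtgaGGGAAGCTCCCgcatctcc
Sfrp2, chr3:83766334-83766361, plus strand: ccccgggtcGGAGCCCCCCggagctgcg
The capitals mark the match, which in several stretches holds overlapping matches on both strands. The remaining genes with a match, Fzd5, Fzd7, Wnt2b and Wnt8b, had no peak centre within 10 kb. AP-1 matches stood in 2 member promoters, those of Wnt5b and Ror2, or 6.45% against 7.06% of other promoters.

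Of the 42 WNT genes, 17 (40.5%, Wilson 95% interval 27.0 to 55.5%) had a RelA peak centre inside the gene or within 10 kb of its ends, against 23.8% of the other 20516 protein-coding genes. Ligand genes made up most of them. The count was 10 of 19 ligands (52.6%, interval 31.7 to 72.7%), 4 of 14 receptors (28.6%, interval 11.7 to 54.6%) and 3 of 9 antagonists (33.3%, interval 12.1 to 64.6%). The receptor and antagonist shares lay near the share of other genes, and the intervals of all 3 roles overlapped. Intervals here cover counting error only, and no test of the gene groups was made, since the peak list has no samples and genes are not replicates.

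**Figure D1:**
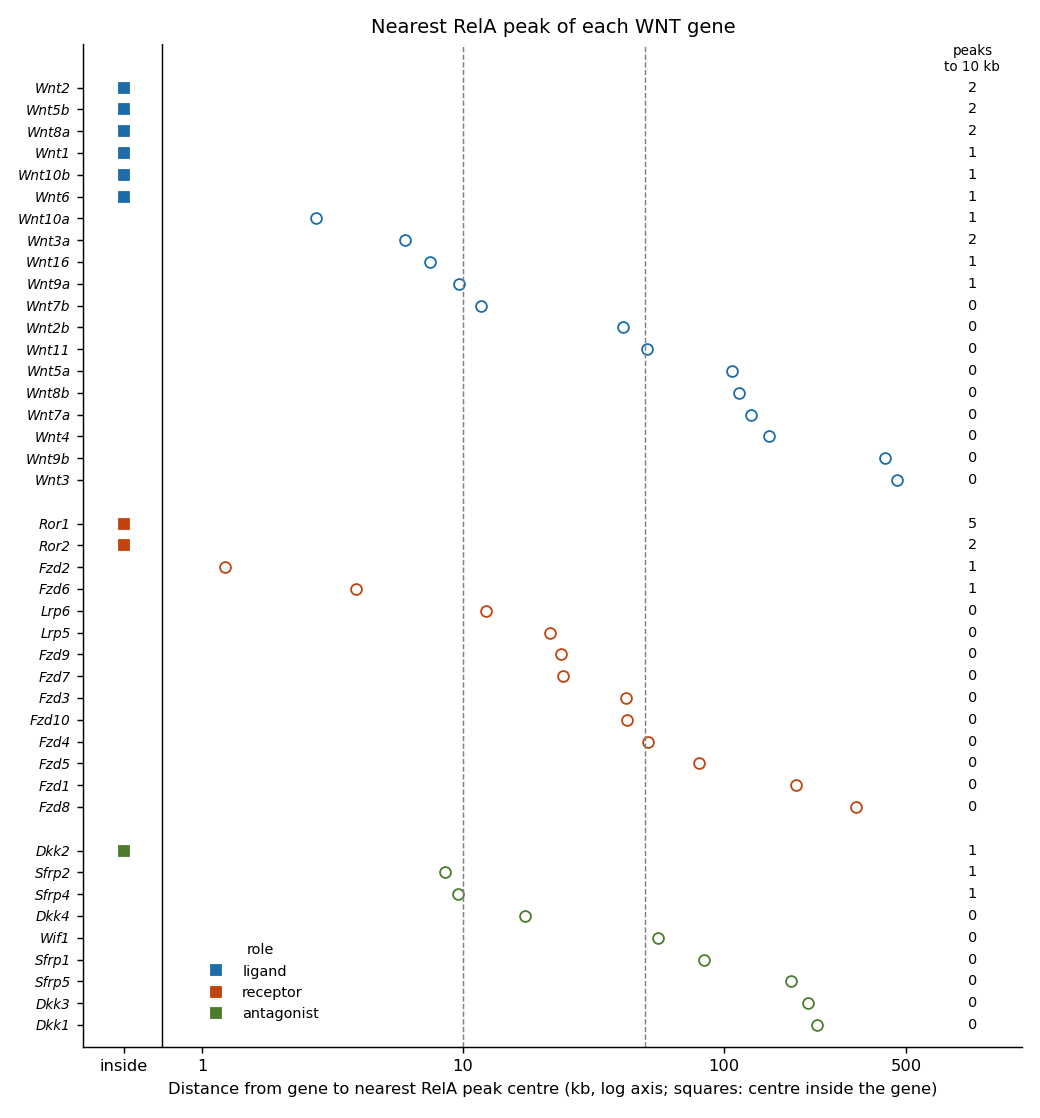
Distance in kb (log axis) from each of the 42 WNT genes to the nearest RelA peak centre, by role; squares stand for a centre inside the gene, dashed lines for 10 and 50 kb, and the right column counts peaks inside or within 10 kb. Of the genes left of the 10 kb line, 10 are ligands, 4 receptors and 3 antagonists, and Ror1 has the most peaks, 5.

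Peak centres lay inside 6 ligand genes, 2 receptor genes and 1 antagonist gene, 9 of 42 in all (21.4%), against 15.0% of other protein-coding genes. No member was added by a flank of 1 kb (background 17.5%), and a flank of 5 kb brought the count to 12 (28.6%, background 20.4%). At 20 kb it was 20 genes (47.6%, background 29.8%), and at 50 kb 26 genes (61.9%, background 44.5%). Receptors had the largest gain between 20 and 50 kb, from 5 to 10 of 14 genes, while antagonists stayed at 4 of 9. Of the receptor genes gained, Fzd3, Fzd9 and Lrp5 counted only through a peak nearer to another protein-coding gene. Fzd7 and Fzd10 were themselves the nearest gene of a peak. The median distance from a gene to its nearest peak centre was 9.69 kb for ligands, 24.0 kb for receptors and 55.9 kb for antagonists, against 64.6 kb for other protein-coding genes.

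**Figure D2:**
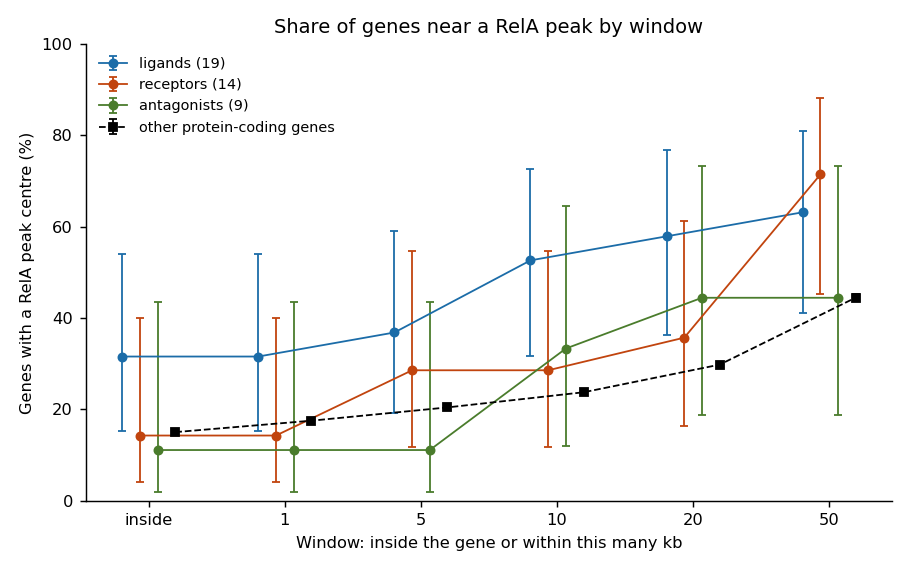
Percentage of genes with a RelA peak centre inside the gene or within the stated distance, for ligands, receptors, antagonists and other protein-coding genes; bars are Wilson 95% intervals. At 10 kb ligands stand at 52.6% and other genes at 23.8%; at 50 kb receptors stand at 71.4% and other genes at 44.5%.

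Gene length bears on such counts, since a long gene offers more sequence for a peak. Among members under 10 kb long, 6 of 16 (37.5%) had a peak inside or within 10 kb, against 12.0% of other genes of that length. From 10 to 50 kb the count was 7 of 18 (38.9%), against 22.0%, and at 50 kb or more it was 4 of 8 (50%), against 45.2%. All 3 ligand genes under 10 kb (Wnt1, Wnt8a and Wnt10b) had a peak, but only 1 of the 8 receptor genes of that length, Fzd2. Per megabase of gene and 10 kb flanks, members held 9.85 peaks (25 peaks, Poisson 95% interval 6.37 to 14.5) and other protein-coding genes 4.90. Ligands stood at 14.1 (interval 7.52 to 24.1), receptors at 7.73 (3.53 to 14.7) and antagonists at 6.61 (1.36 to 19.3). These intervals treat each peak as independent of its neighbours.

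**Figure D3:**
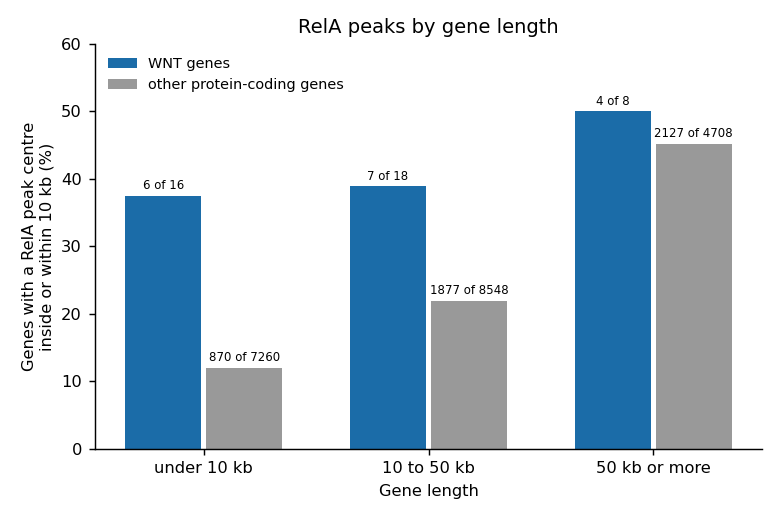
Percentage of WNT genes and of other protein-coding genes with a RelA peak centre inside or within 10 kb, in 3 classes of gene length; numbers over the bars are genes with a peak of all genes in the class. Under 10 kb the WNT genes stand at 37.5% and other genes at 12.0%, and at 50 kb or more at 50% and 45.2%.

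The members together had 25 distinct peaks inside or within 10 kb, 15 of them inside a gene. For 23 of the 25, a WNT gene was also the nearest protein-coding gene. A gene holding the centre counted as nearest, so the 15 inside peaks could hardly go otherwise. Both exceptions were among the 10 peaks outside members. The exceptions were a peak 9.59 kb from Sfrp4, which lay inside its neighbour Epdr1, and a peak 9.83 kb from Wnt8a, which lay 9.45 kb from Fam13b. The 25 peaks had a median width of 673 bp and ranged from 342 to 1222 bp, close to the median of 687 bp over all peaks, and 3 of them were 1000 bp or wider (12%, against 8.67% of all peaks). Among the members, 6 had 2 or more peaks inside or within 10 kb (14.3%, against 6.77% of other genes): Wnt2, Wnt3a, Wnt5b, Wnt8a, Ror1 and Ror2.

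Several ligand genes lie as neighbours in the mammalian genome, and 4 such pairs had less than 50 kb between the genes. In 3 of the 4, both genes had a peak inside or within 10 kb, against 10.8% of 15943 neighbouring pairs of other protein-coding genes with a gap under 50 kb. Neighbours are not independent of each other, and 1 of the 3 pairs counts through a shared peak, so 4 pairs are described here and no trait of linked genes is drawn from them. Wnt1, the ligand known from midbrain patterning, and Wnt10b, known for its role in bone and fat cell fate, point away from each other with 11.7 kb between them. A peak of 845 bp lay inside Wnt1 (chromosome 15, 98791010 to 98791854), 1.58 kb downstream of its start site. A peak of 1222 bp, the widest at any member, lay inside Wnt10b (98775573 to 98776794), 1.97 kb downstream of its start site, and the kappaB matches of the Wnt10b promoter printed above are outside it.

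The pair Wnt6 and Wnt10a, ligands of the skin and its appendages, lies on chromosome 1 with a gap of 6.70 kb. A peak of 483 bp lay inside Wnt6 (74775661 to 74776143), 4.01 kb downstream of the start site, and one of 983 bp lay beyond the end of Wnt10a (74806420 to 74807402), 2.74 kb from the gene. Wnt3a, a strong activator of beta-catenin, and Wnt9a, which acts in joint formation, lie 16.1 kb apart on chromosome 11 and shared a peak of 533 bp between them (59296889 to 59297421). Its centre was 6.40 kb upstream of the Wnt3a start site and 9.78 kb upstream of that of Wnt9a. Wnt3a also had a peak of 538 bp on its other side (59241748 to 59242285), 6.02 kb from the gene. The overlapping genes Wnt9b and Wnt3, also on chromosome 11, were the members farthest from any peak, at 415 and 462 kb.

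Wnt5b had a further peak besides the one at its middle promoter: 770 bp inside the gene (chromosome 6, 119526369 to 119527138), 17.6 kb downstream of the upstream start site. Wnt2, a ligand of lung and placental development, had a peak of 657 bp inside the gene (chromosome 6, 18031503 to 18032159), 0.941 kb from its end and 1.39 kb upstream of its annotated start site. Another, of 773 bp (17979127 to 17979899), lay 5.96 kb beyond the other end. Wnt8a, an early embryonic ligand, held a peak of 699 bp (chromosome 18, 34546946 to 34547644) 0.766 kb from its end. Wnt16, which acts in cortical bone, had a peak of 998 bp 7.53 kb upstream of its start site (chromosome 6, 22280200 to 22281197). At Wnt5b, Wnt2, Wnt1, Wnt10b and Wnt6 the peak nearest to a start site thus lay within a few kb of it. At Wnt3a, Wnt16 and Wnt9a it lay farther out. The further peaks of Wnt5b, Wnt2 and Wnt3a were 17.6, 50.9 and 48.7 kb from their nearest start site. Wnt8a and Wnt10a, also near a peak, have no promoter entry.

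**Figure D4:**
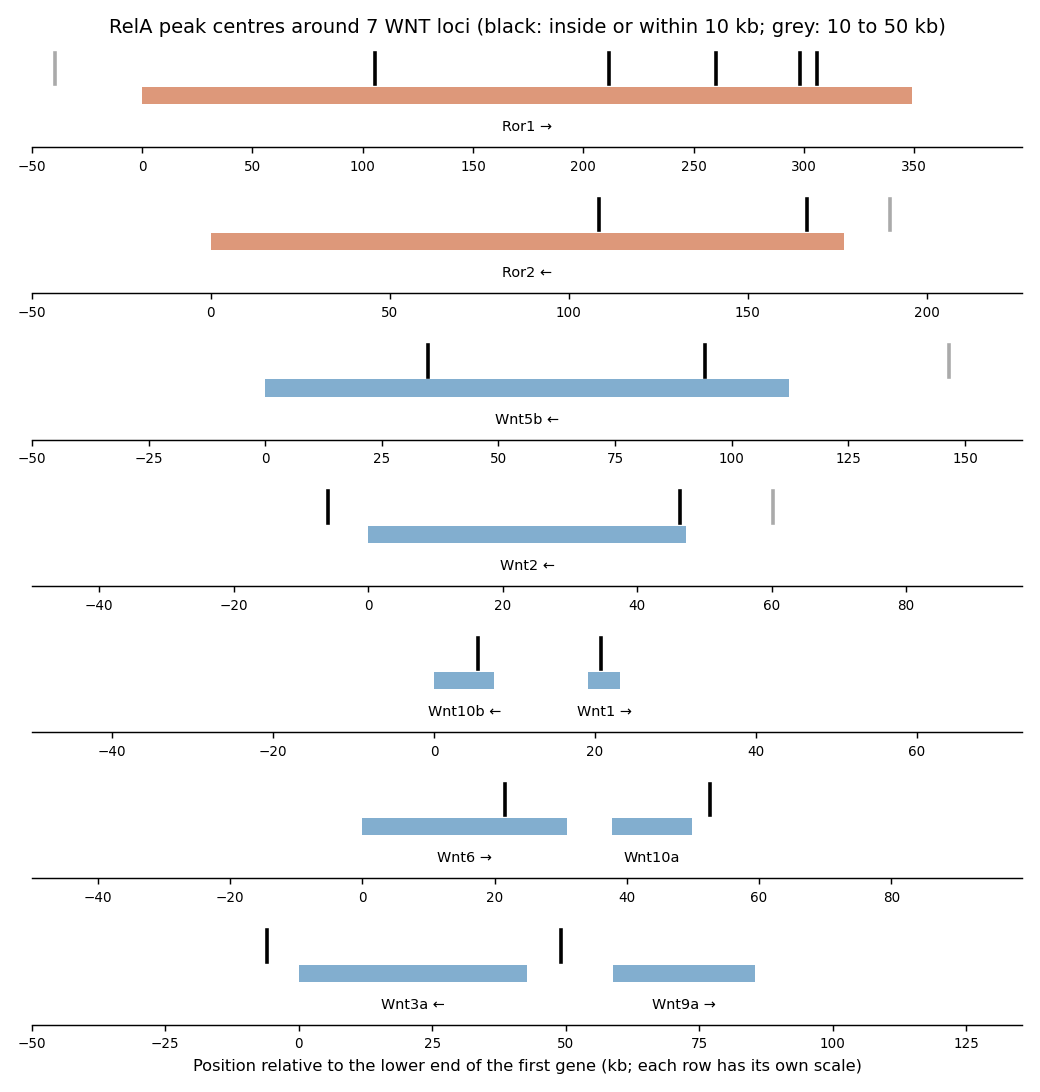
RelA peak centres (vertical bars; black inside or within 10 kb, grey from 10 to 50 kb) around 7 WNT loci, with genes as horizontal boxes, arrows for the direction of transcription where the promoter table gives it, and position in kb from the lower end of the first gene, each row on its own scale. Ror1 holds 5 peaks inside the gene, and Wnt3a and Wnt9a share the peak between them.

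The other 9 ligand genes had no peak within 10 kb. Wnt7b was nearest, at 11.7 kb, followed by Wnt2b at 41.1 kb through a peak inside the neighbouring gene St7l. Wnt11 (50.7 kb), Wnt5a (108 kb), Wnt8b (114 kb), Wnt7a (127 kb) and Wnt4 (149 kb) were farther away still. Wnt5a and Wnt5b, the closely related ligands of the branch without beta-catenin, therefore differed in this list: Wnt5b held 2 peaks and Wnt5a none within 100 kb. They also differ in length, 112 kb for Wnt5b and 22.9 kb for Wnt5a. Of other genes, 45.2% of those of 50 kb or more had a peak, against 22.0% of those from 10 to 50 kb. The part of length in this difference was not tested.

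Among receptors, the genes for the receptor tyrosine kinase-like proteins ROR1 and ROR2, which bind WNT5A, held the most peaks. Ror1 spans 349 kb on chromosome 4 (100095791 to 100444806) and held 5 peaks. Inside or within 10 kb, 0.604% of other protein-coding genes of any length had 5 or more. The centres of the Ror1 peaks lay 106, 212, 260, 298 and 306 kb downstream of its start site, with widths of 563, 545, 342, 673 and 1054 bp. All were thus in the gene body and none within 100 kb of the start site on that side. The last pair (100393463 to 100394135 and 100401084 to 100402137) was 7.81 kb apart. A further peak of 825 bp lay 39.6 kb upstream of Ror1. Ror2 spans 177 kb on chromosome 13 and held a peak of 619 bp 10.2 kb downstream of its start site (53275588 to 53276206) and one of 1031 bp 68.4 kb downstream (53217228 to 53218258). A further one of 670 bp stood 12.9 kb upstream. Both genes are long, a class in which 45.2% of other genes had a peak. Other protein-coding genes had a median length of 17.6 kb, and the share of long ones with 5 or more peaks was not counted.

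The Frizzled genes are mostly short, with 8 of 10 under 10 kb. None of the 10 had a peak centre inside the gene (Wilson interval 0 to 27.8%), against 15.0% of other protein-coding genes of any length and 3.21% of those under 10 kb. Inside or within 10 kb, 2 of 10 had one, close to the 23.8% of other genes of any length. Of the 8 under 10 kb, 1 had one, against 12.0% of other genes of that length. Fzd2 came closest, with a peak of 528 bp 1.22 kb from the gene (chromosome 11, 102602944 to 102603471) and 4 peaks within 50 kb. Fzd6, which acts in planar cell polarity and hair orientation, had a peak of 859 bp 3.91 kb from the gene (chromosome 15, 39041668 to 39042526). Fzd9 (23.8 kb), Fzd7 (24.1 kb), Fzd3 (42.3 kb) and Fzd10 (42.7 kb) followed, and Fzd4 (51.5 kb), Fzd5 (80.8 kb), Fzd1 (190 kb) and Fzd8 (322 kb) had none within 50 kb. The co-receptor genes Lrp6 and Lrp5 had their nearest peak centres at 12.3 and 21.6 kb, and neither peak had the co-receptor gene as its nearest gene. The Lrp6 peak lay inside Bcl2l14 and the Lrp5 peak 0.0735 kb from 1810055G02Rik.

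Of the peaks from 10 to 50 kb around the receptor genes, 2 that covered whole promoter windows of other genes are shown as sequence under a peak. They were singled out after their positions and letters were seen. The peak 16.4 kb from Fzd2 covered the promoter of the noncoding gene 2810433D01Rik (chr11:102624367-102624666, minus strand), and the peak nearest to Lrp5 covered a promoter of 1810055G02Rik (chr19:3708043-3708342, plus strand). Capitals mark the kappaB match.
2810433D01Rik: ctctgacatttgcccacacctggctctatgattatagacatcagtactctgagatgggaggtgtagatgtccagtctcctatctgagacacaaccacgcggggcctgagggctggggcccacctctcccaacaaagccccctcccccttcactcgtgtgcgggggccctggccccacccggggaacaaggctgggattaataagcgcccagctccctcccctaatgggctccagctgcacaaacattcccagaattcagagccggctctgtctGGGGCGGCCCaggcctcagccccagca
1810055G02Rik: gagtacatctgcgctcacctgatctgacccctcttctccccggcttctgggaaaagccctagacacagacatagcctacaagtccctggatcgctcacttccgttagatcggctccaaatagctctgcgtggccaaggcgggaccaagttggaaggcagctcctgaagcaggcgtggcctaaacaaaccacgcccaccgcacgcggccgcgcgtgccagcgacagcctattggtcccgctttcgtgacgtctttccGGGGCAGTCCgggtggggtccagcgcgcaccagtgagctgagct
Each window held 1 match, and the peak centres lay 0.0435 and 0.0735 kb from the start sites. That these start sites belong to neighbours follows from the choice of the peaks and is no result. Fzd2 and Lrp5 have no promoter entry, so their own start sites could not be looked for under a peak.

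Among antagonists, Dkk2 held a peak of 400 bp deep inside the gene (chromosome 3, 132146263 to 132146662), 61.2 kb downstream of its start site. DKK2 is a Dickkopf protein that binds LRP5 and LRP6. Sfrp2 had a peak of 837 bp 8.54 kb from the gene (chromosome 3, 83782437 to 83783273), and Sfrp4 one of 814 bp at 9.59 kb (chromosome 13, 19613178 to 19613991). Both left the count at 5 kb, as did the ligand genes Wnt3a, Wnt9a and Wnt16. Nearest to the 10 kb limit were Wnt9a and Sfrp4 on the inner side and Wnt7b and Lrp6 on the outer side. Dkk4 followed at 17.4 kb, nearer to Vdac3. Wif1 (55.9 kb), Sfrp1 (83.8 kb), Sfrp5 (181 kb), Dkk3 (210 kb) and Dkk1 (228 kb) had no peak within 50 kb.

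Measured from annotated start sites, 8 of the 28 members with a promoter entry (28.6%) had a peak centre within 10 kb, against 13.6% of other genes. All 8 were ligand genes: Wnt1, Wnt2, Wnt3a, Wnt5b, Wnt6, Wnt9a, Wnt10b and Wnt16. Of these, Wnt3a and Wnt9a counted through the peak they share. The closest receptor or antagonist gene with an entry was Ror2, at 10.2 kb. Within 1 kb the count was 1 of 28 (3.57%), Wnt5b, against 6.84%. A count of 1 among 28 genes is near the share of other genes.

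The rest of the pathway was taken from 6 lists of 68 genes, all matched in the gene table, 2 of them through an older symbol. Of these, 25 (36.8%, interval 26.3 to 48.6%) had a peak inside or within 10 kb, against the same 23.8%. Per megabase of gene and 10 kb flanks they held 6.74 peaks (Poisson interval 4.81 to 9.17), against 4.90 for other protein-coding genes. Many are long: 31 of the 68 span 50 kb or more, and 16 of these 31 had a peak, against 45.2% of other genes of that length. Planar polarity genes had the largest share of these lists, 7 of 11 (63.6%, interval 35.4 to 84.8%), but 8 of the 11 span 50 kb or more and 6 of those 8 make up most of the count. Within 10 kb of a gene end only, 4 of the 11 had a peak, against 17.7% of other protein-coding genes of any length. Prickle2 and Prickle1, which encode cytoplasmic polarity proteins, had 2 peaks each, with a centre inside Prickle2 only 0.116 kb from one end. Daam1, the gene of a formin that acts on actin downstream of Dishevelled, had 6. The target genes of the pathway followed with 5 of 10: Nkd1, an inhibitor of Dishevelled, had 3 peaks, the matricellular gene Ccn4 (Wisp1) a peak at 0.097 kb, and Myc one at 1.05 kb. Axin2, the most widely used readout of the beta-catenin branch and named after its value was seen, had a peak at 1.74 kb.

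Nuclear factors had 5 of 13 genes near a peak, among them the beta-catenin co-activator gene Bcl9l, the co-repressor gene Tle1 and the TCF factor gene Tcf7l1, each with a peak inside the gene. Intracellular transducers had 4 of 16, with peaks inside Gsk3b, Tnks and Apc, which encode enzymes and a scaffold that set the level of beta-catenin. Regulators of the receptors and other antagonists had 3 of 11: Lgr6 and Lgr4, receptors of R-spondins, held peaks, and the ubiquitin ligase gene Znrf3 had one at 4.42 kb. Genes for secretion and modification of ligands had 1 of 7, Trabd2b, which encodes a membrane protease that inactivates WNT proteins. The Wilson interval of the secretion list ran from 2.57 to 51.3%. It ran from 17.7 to 64.5% for nuclear factors, 10.2 to 49.5% for transducers and 9.75 to 56.6% for regulators. All these intervals include the 23.8% of other protein-coding genes. Of the genes named here, all but Bcl9l span 50 kb or more. Of that length, 2 of 6 nuclear factors and 3 of 6 transducers had a peak. So had 3 of 6 regulators and 1 of 4 secretion genes, against 45.2% of other genes.

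Among other growth factor families, chosen by symbol as a comparison, 7 of 40 genes for FGF, BMP and GDF proteins (17.5%, interval 8.75 to 32.0%) had a peak inside or within 10 kb, and 9 of 14 TGF-beta ligand, receptor and SMAD genes did (64.3%, interval 38.8 to 83.7%). Peaks per megabase were 2.57 for the FGF, BMP and GDF genes (interval 1.11 to 5.06) and 17.8 for the TGF-beta group (11.2 to 27.0), with the WNT genes at 9.85 between them. These differences were not tested.

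**Figure D5:**
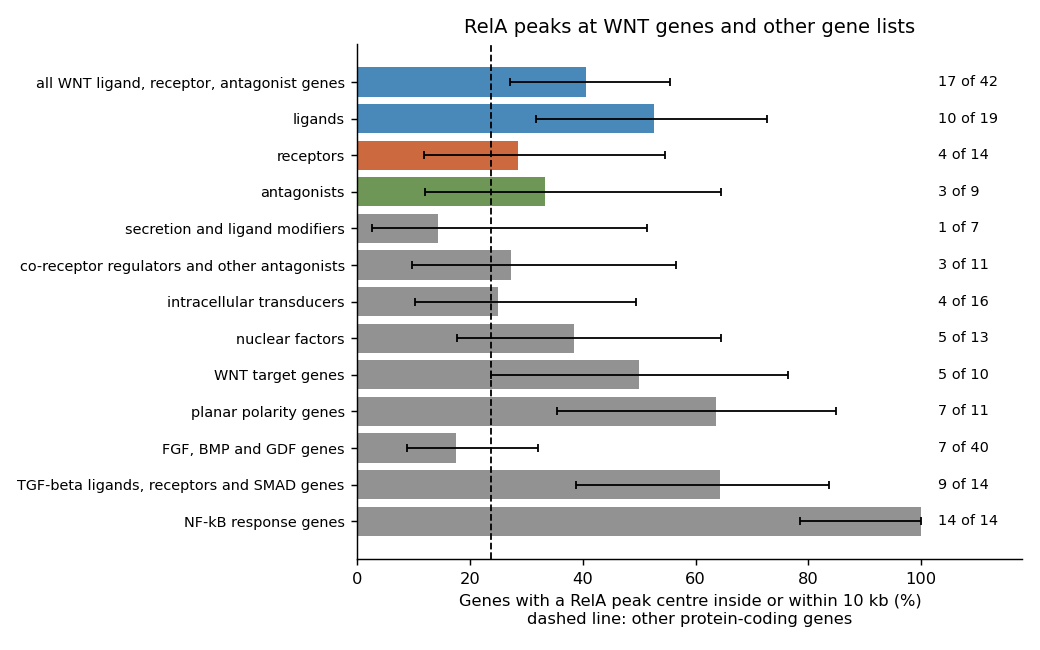
Percentage of genes with a RelA peak centre inside or within 10 kb, for the WNT genes by role, 6 lists of other WNT pathway genes, 2 other growth factor groups and the NF-kB response genes; thin lines are Wilson 95% intervals, numbers at the right are genes near a peak of all genes listed, and the dashed line is the 23.8% of other protein-coding genes. Ligands stand at 52.6%, planar polarity genes at 63.6% and all 14 NF-kB response genes at 100%.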

How the data were processed

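RelA binding was assayed after a double cross-link (disuccinimidyl glutarate, then formaldehyde), per the labels' protocols, and such a link can also retain DNA that RelA reaches through other proteins. The submitters' processing notes name mm10 and the tools MACS2, deepTools, Bowtie2 2.3, cutadapt 1.9.1, Picard 1.13 and SAMtools. Not given in the sources used here: what each tool did, how peaks were cut off, and whether inputs or pooled libraries entered the calls. The authors deposited 3 columns: chromosome, start and end of each peak.

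Starts were converted to positions counted from 1. A gene was near a peak when the peak centre lay inside it or within 10 kb of its ends. Gene positions came from RefSeq (GRCm38.p6, the same assembly as mm10), with 333 genes on patches or scaffolds of chromosomes 1 to 19 left out. The table has no exons. Start sites, strands and sequences came from the RefSeq promoter table of the same assembly, and no genome was used. The kappaB motif is 3 G bases, a purine, 3 free bases, a pyrimidine and 2 C bases, searched on both strands. Wilson and Poisson 95% intervals came from scipy 1.17.1. Counting was checked on simulated peaks.

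The members and gene lists were chosen with earlier results of these data known. All members were accounted for. Of each other WNT pathway list and of the NF-kB response genes, the 3 genes closest to a peak within 10 kb were named, and none of the other growth factor families, with ties inside genes ordered by the distance to a gene end. Members with no promoter entry have no start site distance.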

Additional observations from a re-analysis of the deposited data

How the results depend on the processing

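Of 45 alternative counts, 31 stayed within 1.5 times of the reported one. The share of all members was above that of other genes in 10 of 10 alternatives, and the share of ligands in 8 of 8. These alternatives recount the same genes and peaks and are not independent of each other. With neighbouring members counted once (14 of 38), neighbours among the other genes were still counted singly. With a 1 kb window the counts were 9 members, 6 ligands, 2 receptors, 1 antagonist and 16 other pathway genes. Receptors (14.3%) and antagonists (11.1%) then lay below other genes (17.5%), as did receptors near gene ends only (14.3% against 17.7%) and antagonists at 5 kb (11.1% against 20.4%) and 50 kb (44.4% against 44.5%). With 5 kb, 1 antagonist was left. With 50 kb there were 26 members, 10 receptors and 41 other pathway genes. Near gene ends only, 2 receptors and 15 other pathway genes remained in the count, and with the wider peaks only, 15 other pathway genes. From start sites, an alternative chosen after seeing the data, 8 members of 28 were near, all of them ligand genes. With the last motif position free, 21 of 31 member promoters matched, against 51.2% of others. The smaller or larger window, the fewer peaks or the looser motif is by construction what changed each count. No paired analysis was possible because the peak list has no columns per sample, and no replicate could be left out. Depth per library was unknown, so the absence of a peak says nothing about weak binding.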
